A study of Saccharomyces cerevisiae with 19 samples.

Results

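The 6 mRNA-seq libraries of the series describe the transcriptome of wild-type budding yeast, Saccharomyces cerevisiae, in exponential growth. They were chosen by assay, as the 6 of 19 libraries titled mRNA-seq. Every library came from BY4741, a haploid MATa laboratory strain that carries deletions at LEU2, MET17 and URA3 and a partial deletion at HIS3. Cells grew in YPD, a rich glucose medium, from an OD600 of 0.02 to 0.4, received cycloheximide for 1 min, and were filtered and frozen. All groups share this strain, medium and drug. The groups are named for the linkers and RT primers, randomized or not, that made the library: Nonrandom, 4N and 4+3N (n = 2 each). The labels' protocols describe extraction for ribosome profiling and give none of their own for mRNA, so how mRNA was selected is not given in the sources used here; the molecule label reads total RNA. Of 6021 protein-coding genes in the RefSeq R64 annotation, 5730 were listed with reads in at least 1 of the 6 tables and 291 in none.

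Yeast in excess glucose ferments it to ethanol even when oxygen is present. Glucose represses genes for respiration, for gluconeogenesis and for the use of other sugars, and it stimulates transcription of ribosomal protein genes through nutrient signalling. A haploid a cell expresses the alpha-factor receptor and a-factor genes, keeps the silent mating cassettes HML and HMR off, and does not enter meiosis. Genes within reach of the telomeres lie in regions where chromatin of the SIR and histone deacetylase systems can hold transcription down.

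Counted reads per library ran from 1838817 (4N replicate 2) to 3497303 (Nonrandom replicate 2), and between 5612 and 5674 genes were listed in each. A count of 0 allows up to 3 reads, which corresponds to between 0.858 and 1.63 CPM by library (CPM, counts per 1000000, relative to all counted reads; counting error only). Reads were unevenly spread. The 10 genes with most reads took 12.8% to 13.7% of reads, the 100 highest took 34.7% to 36.7%, and 244 to 280 genes were enough to reach 50% of all reads. On the mean of the 6 libraries 147 genes exceeded 1000 CPM and held 40.6% of reads, while the 3301 genes between 10 and 100 CPM held 16.1%. No label says that replicates were separate cultures, so spread between libraries may be technical, and p-values measure only that spread. In each sentence below, ± is the SD over the 6 libraries (n = 6, 2 of each preparation) unless another n is given. Libraries with the same replicate number share a source name, so the 6 may be repeat preparations of 2 sources, and an n of 6 then overstates replication.

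**Figure D1:**
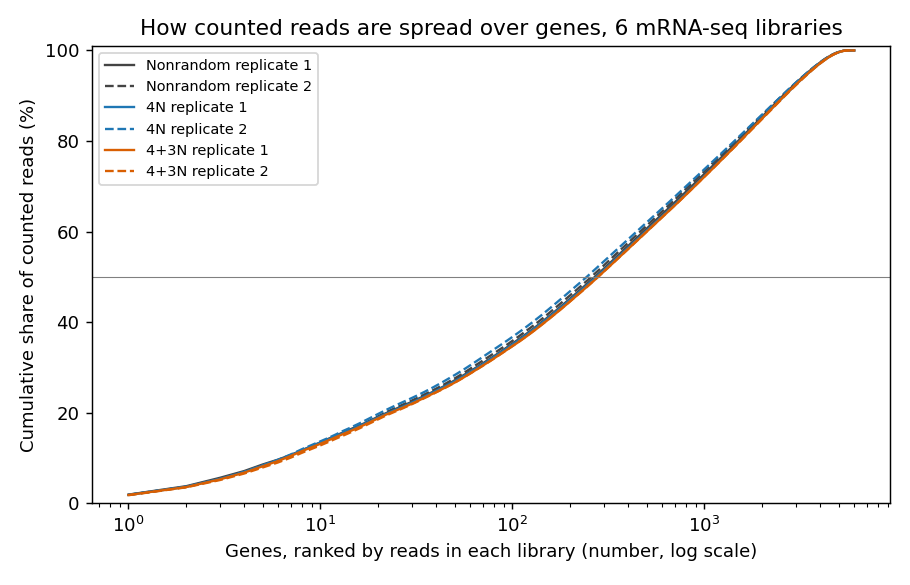
Cumulative share of counted reads (y axis, percent) against the number of genes, ranked by reads within each library (x axis, log scale), one line per mRNA-seq library. The 6 lines lie close together and cross 50% between 244 and 280 genes.

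The genes with most reads were those of glycolysis and ethanol fermentation. PDC1, pyruvate decarboxylase, which makes acetaldehyde from pyruvate, stood at 19085 and 18518 (Nonrandom), 18384 and 18866 (the 4N libraries) and 18269 and 16129 (the 4+3N libraries) CPM. FBA1, the aldolase that splits fructose bisphosphate, stood at 18544 and 17686 (Nonrandom), 17703 and 17816 (the 4N libraries) and 17049 and 17450.4 (the 4+3N libraries) CPM. TDH3, the main glyceraldehyde-3-phosphate dehydrogenase, stood at 18625 and 17107 (Nonrandom), 17939 and 16621 (the 4N libraries) and 17473 and 17754 (the 4+3N libraries) CPM. The ranges of these 3 genes overlapped, and PDC1 was the highest gene in 5 of the 6 libraries and TDH3 in 4+3N replicate 2. Then came ADH1, the alcohol dehydrogenase that makes ethanol (14989.8 ± 639 CPM), ENO2, an enolase (14149.9 ± 433 CPM), PGK1, phosphoglycerate kinase (11254 ± 587 CPM), CDC19, pyruvate kinase (10916 ± 609 CPM), and GPM1, phosphoglycerate mutase (10666 ± 723 CPM). CCW12, a mannoprotein of the cell wall, was the first gene outside this pathway at 9135 ± 592 CPM. The same 10 genes, with RPL3 of the large ribosomal subunit as the last, were the top 10 in all 6 libraries.

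Below them came RPL3 (7942 ± 211 CPM), the elongation factor 3 gene YEF3 (7639.6 ± 266 CPM), TPI1, triosephosphate isomerase (7009.8 ± 295 CPM), ASC1, the Gbeta-like protein of the small ribosomal subunit (6817 ± 680.1 CPM), RPP0, of the ribosomal stalk (5660.3 ± 226 CPM), and RPL10 (5437 ± 341 CPM). Beside CCW12, genes outside translation and glycolysis among the first 30 were PMA1, the plasma membrane proton pump (5138 ± 350.5 CPM), HSC82, an Hsp90 chaperone (4011 ± 278 CPM), TMA19, a protein associated with translating ribosomes (3110.1 ± 293 CPM), PDR5, a multidrug exporter (2989 ± 167 CPM), CPR1, cyclophilin A (2940.4 ± 167 CPM), AHP1, a thioredoxin peroxidase (2858 ± 155 CPM), and PSA1, the GDP-mannose pyrophosphorylase that feeds protein mannosylation (2829 ± 107 CPM). The 30 genes together took 21.8% to 23.2% of reads. By the ranges over 6 libraries, the order within the 30 was mostly not resolved. Of the 30 steps from one gene to the next in rank, 24 had overlapping ranges. The 6 that did not were TDH3 above ADH1, ENO2 above PGK1, CCW12 above RPL3, YEF3 above TPI1, ASC1 above RPP0 and HSC82 above PGI1. Compared within each library, some overlapping steps also held in all 6. These were ADH1 above ENO2, RPL3 above YEF3, RPS12 above RPS3, RPS3 above HSC82 and RPL15A above TMA19. The remaining overlapping steps did not hold in all 6. Across libraries, 26 genes were in the first 30 of all 6 and 35 in that of any, and 89 genes were in the first 100 of all 6. The coefficient of variation over the 6 libraries ran from 1.95% for RPL2B to 10.1% for RPS12, against a median of 9.07% over expressed genes. An intron of ASC1 holds a small nucleolar RNA gene, and whether its reads were counted with ASC1 is not given in the sources used here.

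**Figure D2:**
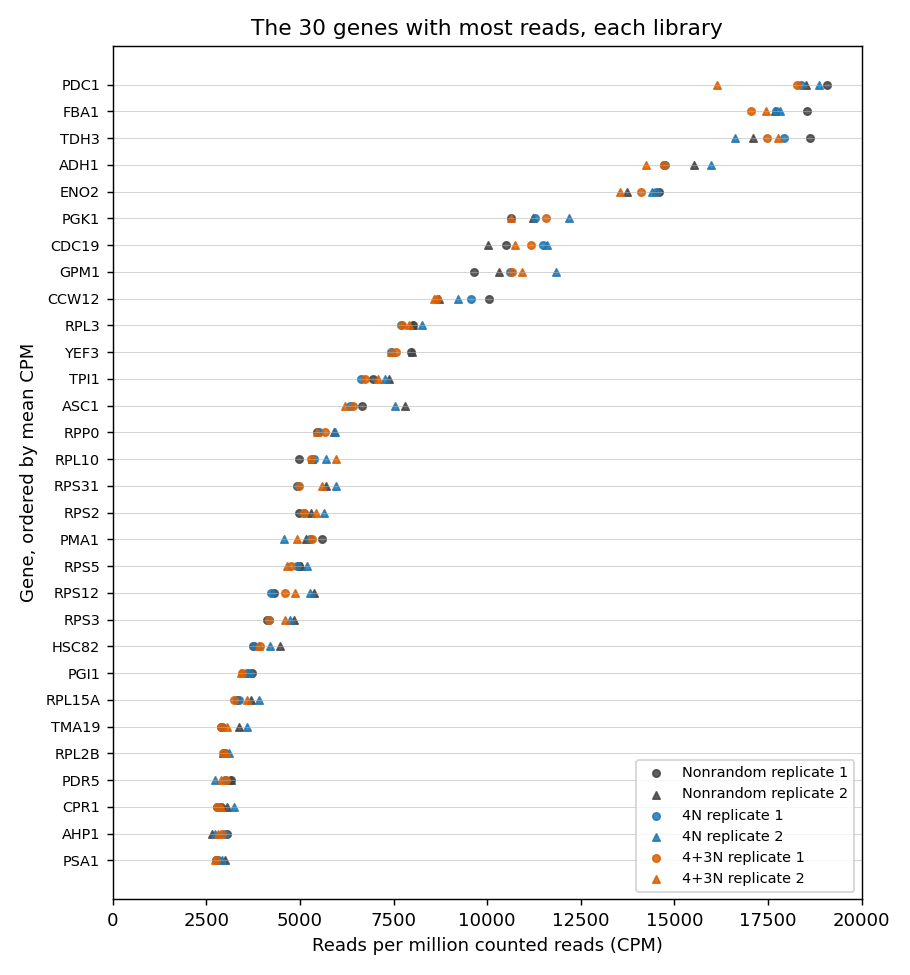
CPM (x axis, linear) for the 30 genes with the highest mean, ordered by mean (y axis), one point per library, coloured by preparation with circles for replicate 1 and triangles for replicate 2. PDC1, FBA1 and TDH3 overlap at the top, and from PGI1 down the neighbouring genes overlap.

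A share of reads grows with gene length, so levels of different genes were compared per annotated length, as TPM (transcripts per 1000000, reads per base of annotated span, scaled to a fixed sum as for CPM). On this scale CCW12 came first at 22228 ± 1592 TPM, from 20648 to 24812, above every library of TDH3 (15959 to 18494). FBA1 (16034 ± 534 TPM), GPM1 (14010.0 ± 793 TPM) and ADH1 (13997 ± 537 TPM) followed, and PDC1, with its longer gene, came to rank 10 (10526 ± 674 TPM). Short genes moved up. YDR524C-B, an open reading frame of 201 bp with no standard name in the annotation, had 11920.3 ± 770.5 TPM and rank 6, while by reads it had rank 37. RPS31, a fusion of ubiquitin with a small-subunit protein (11383 ± 841 TPM), RPS12 (9648 to 12185 TPM), RPS20 (6473 ± 322 TPM), RPP2B (6299.8 ± 286 TPM) and RPP1A (6043 ± 658 TPM) were among the first 20. The long PDR5 fell to rank 240 and PMA1 to rank 85. Over the 5268 expressed genes, defined below, the median level was 49.3 TPM, with 10% of genes below 16 and 10% above 281 TPM. The median fell from 132 TPM for the 127 expressed genes under 300 bp to 28.8 TPM for the 842 of at least 2400 bp, and length and TPM had a Spearman correlation of -0.374 across genes. Length enters TPM as its divisor, and genes of 1 library share its depth, so this correlation is a description only. Annotated spans include introns, so genes with introns, many of them ribosomal, have a TPM that is too low.

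Ribosomal protein genes, large and small subunit together, took the largest share among the lists. Much of this share was held by genes marked by name as near-identical copies. The 138 ribosomal protein genes took 18.7% to 20.7% of reads and 27.9% to 30.03% of TPM, and 56 of them were among the 100 genes with most reads. Of 81 large-subunit genes 79 were expressed, and of 57 small-subunit genes 57 were. Levels within the class were far from even. Among large-subunit genes the highest levels were those of RPL10 (7978 ± 413 TPM) and RPL3 (6670.4 ± 142 TPM), whose products lie near the peptidyl transferase centre, and among the low ones were RPL15B (95 ± 8.58 TPM), RPL35B (43.4 ± 15.9 TPM), RPL7B (48.3 ± 7.0 TPM) and RPL41B (205 ± 148 TPM). The paired gene RPL15A stood at 5591 ± 339 TPM, against that value of RPL15B. Of the 138 genes 118 are marked by name as near-identical copies. Sequences were not compared, so marked pairs may differ. How reads that match both copies of a pair were counted is not stated, so these values are uncertain. With all marked copies left out of the total, the large-subunit list held 4.2% and the small-subunit list 4.64% of reads. Glycolysis then held 8.22%, above either subunit list alone though not above both together, and fermentation 2.5%. The elongation factor list, with a median of 174 TPM over 11 genes, holds 4 marked copies. TEF1 and TEF2, whose common product is elongation factor 1 alpha, a protein known as one of the most abundant in the cell, stood at 143 ± 51.8 TPM and 174 ± 69 TPM, and the genes of elongation factor 2, identical in product, at 14.2 ± 6.01 TPM (EFT1) and 26.7 ± 10.1 TPM (EFT2). Elongation genes without a marked copy ran from HEF3, a paralog of YEF3 (4.83 ± 0.776 TPM), to YEF3, with EFB1, the exchange factor for elongation factor 1 alpha, at 2121 ± 67 TPM and YEF3 at 2383 ± 102 TPM. HYP2, the eIF5A gene of aerobic cells, stood at 2246 ± 192 TPM and its hypoxic copy ANB1 at 55.5 ± 5.12 TPM.

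Ribosome assembly and translation initiation took smaller shares. The 50 ribosome biogenesis genes, all expressed, took 1.09% to 1.14% of reads, led by reads by NOP56 (494 ± 19.9 TPM) and NOP1 (584 ± 32 TPM), core proteins of box C/D snoRNPs, and CBF5 (509 ± 10.2 TPM), the pseudouridine synthase of box H/ACA snoRNPs. The lowest by reads were IMP3 (64.8 ± 6.87 TPM) and BUD21 (61.6 ± 8.31 TPM), of the small-subunit processome. The 26 initiation factor genes, all expressed, took 0.931% to 0.964%, with PRT1 of eIF3 (309.9 ± 9.88 TPM), PAB1, the poly(A)-binding protein (373 ± 43.2 TPM), and TIF3, eIF4B (487 ± 16.3 TPM), at the top by reads. TIF1 and TIF2, the identical eIF4A genes, stood at 128 ± 22.3 TPM and 123 ± 14.7 TPM and share the uncertainty of copies.

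The 28 genes of glycolysis and ethanol fermentation took 13.2% to 14% of reads, and 10 of them were among the first 30 genes. For most steps 1 isozyme held most of the level. TDH3 stood at 17219 ± 854 TPM, TDH2 at 2766 ± 171 TPM and TDH1 at 149 ± 15 TPM. The pyruvate kinase CDC19 stood at 7101 ± 381 TPM and its paralog PYK2, which is known to be repressed by glucose, at 29.5 ± 2.64 TPM. PDC1 stood at 10526 ± 674 TPM, PDC5 at 22.6 ± 1.98 TPM and PDC6 at 0.978 ± 0.524 TPM. ADH1 stood at 13997 ± 537 TPM and ADH2, the ethanol-oxidizing enzyme that glucose represses, at 29.3 ± 5.53 TPM. HXK2, the hexokinase of glucose growth, stood at 1399 ± 33.4 TPM, GLK1 at 300.4 ± 21.5 TPM and HXK1 at 91.2 ± 9.79 TPM. ENO2 stood at 10531 ± 396 TPM and ENO1 at 377 ± 20.7 TPM. In each of these sets the first named gene was above the others in every library. TDH3, TDH2, ADH1, ADH2, ENO1 and ENO2 are marked as near-identical copies, so their levels and ranks are uncertain. The leading isozymes of the lower steps, from FBA1 to CDC19, had higher levels in every library than PFK1 (383 ± 29.1 TPM) and PFK2 (331 ± 23.6 TPM), the phosphofructokinase subunits.

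Of 18 hexose transporter and sensor genes 8 were expressed, and together they took 0.148% to 0.168% of reads. HXT3, a low-affinity transporter, led with 379 ± 24.8 TPM, above HXT2 (231 ± 16.3 TPM) and HXT1 (220.4 ± 8.08 TPM). HXT1 and HXT2 were not resolved, as the ranges of HXT1 (209.6 to 229 TPM) and HXT2 (206 to 252 TPM) overlapped. HXT4 stood at 29.6 ± 2.97 TPM, the sensor RGT2 at 23.1 ± 4.35 TPM and the sensor SNF3 at 8.93 ± 1.7 TPM. HXT6 and HXT7, high-affinity transporters of nearly the same sequence, stood at 0.43 ± 0.217 TPM and 3.0 ± 0.535 TPM. HXT15 had 0, 0, 1, 0, 1 and 1 reads and HXT16 none. Of the 18 genes 8 are marked by name as near-identical copies, HXT15 and HXT16 among them. How reads that match several such genes were counted is not stated. The low values of HXT6, HXT7, HXT15 and HXT16, and the count of 8 expressed genes, are therefore uncertain.

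Genes of gluconeogenesis and of other sugars were low, with list medians of 11.4 and 8.63 TPM, while those of the tricarboxylic acid cycle and the respiratory chain had medians of 145 and 123 TPM, above the 49.3 TPM of expressed genes. By reads the cycle list had a median of 177 CPM and the respiratory list 52.1 CPM, against 68.5 CPM for expressed genes. The respiratory list was thus above expressed genes per length only. The 15 gluconeogenesis and glyoxylate genes took 0.0696% to 0.0754% of reads, and 13 of them were expressed. CIT2, the peroxisomal citrate synthase (197 ± 9.65 TPM), was the highest of the list, while FBP1, fructose bisphosphatase (12.5 ± 4.99 TPM), PCK1, PEP carboxykinase (6.93 ± 0.995 TPM), and MLS1, malate synthase (4.46 ± 1.34 TPM), were far below the median of expressed genes. SFC1, the succinate-fumarate carrier, had 1, 3, 4, 2, 1 and 6 reads. Of 19 galactose, maltose and sucrose genes 13 were expressed, with GAL80, the repressor of the pathway (77.3 ± 11.1 TPM), and SUC2, invertase (63.1 ± 6.58 TPM), above GAL1 (8.87 to 12.2 TPM), GAL10 (9.08 ± 1.97 TPM) and GAL7 (4.44 ± 1.12 TPM), the enzymes of galactose use. Maltase MAL12 and MAL32 stood at 0.435 ± 0.243 TPM and 0.462 ± 0.383 TPM, and IMA3 and IMA4 were listed in none of the 6 tables. These 4 are marked by name as near-identical copies. The 17 tricarboxylic acid cycle genes, all expressed, took 0.352% to 0.394%, led by reads by ACO1, aconitase (398 ± 37.6 TPM), and lowest by reads in CIT3 (8.76 ± 1.51 TPM). Of the 36 nuclear genes of the respiratory chain and ATP synthase 35 were expressed, with 0.303% to 0.32% of reads. ATP2 (404 ± 25.2 TPM) had most reads there, and CYC7, the hypoxic cytochrome c (5.55 ± 2.06 TPM), was the exception, below CYC1 (92.1 ± 14.9 TPM).

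Further groups with a large share were the cell wall, amino acid synthesis and chaperones. The 27 cell wall genes took 2.58% to 3.0% of reads and 3.8% to 4.53% of TPM, with CWP2 (3781 ± 499.5 TPM), GAS1, a glucan remodelling enzyme (1092 ± 79.4 TPM), and ECM33 (1197 ± 91.1 TPM) among those below CCW12. PIR3 was the 1 member not expressed by the rule (8.06 ± 3.41 TPM). The 54 amino acid synthesis genes, all expressed, took 2.06% to 2.15%, led by ILV5 of branched-chain synthesis (1286 ± 81.9 TPM) and lowest in ARG3, ornithine carbamoyltransferase (8.44 ± 2.56 TPM). Among 25 chaperone genes the constitutive SSB1 (983 ± 57.7 TPM), SSA2 (746 ± 60.4 TPM) and HSC82 (1851 ± 119 TPM) were high, and the stress-induced HSP26 (41.6 ± 7.82 TPM), HSP30 (9.93 ± 2.91 TPM) and HSP12 (18.7 ± 8.68 TPM) were low. PHO84, the high-affinity phosphate transporter, stood at 1145 ± 50.9 TPM and led its list. FET3, the multicopper oxidase of iron uptake, stood at 581 ± 22.2 TPM. ACT1, actin, stood at 1565 ± 73.1 TPM, and ERG11, lanosterol demethylase, at 562 ± 15.2 TPM. The 32 proteasome genes, all expressed, lay from 177 to 394 TPM, a narrow band next to the lists above.

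**Figure D3:**
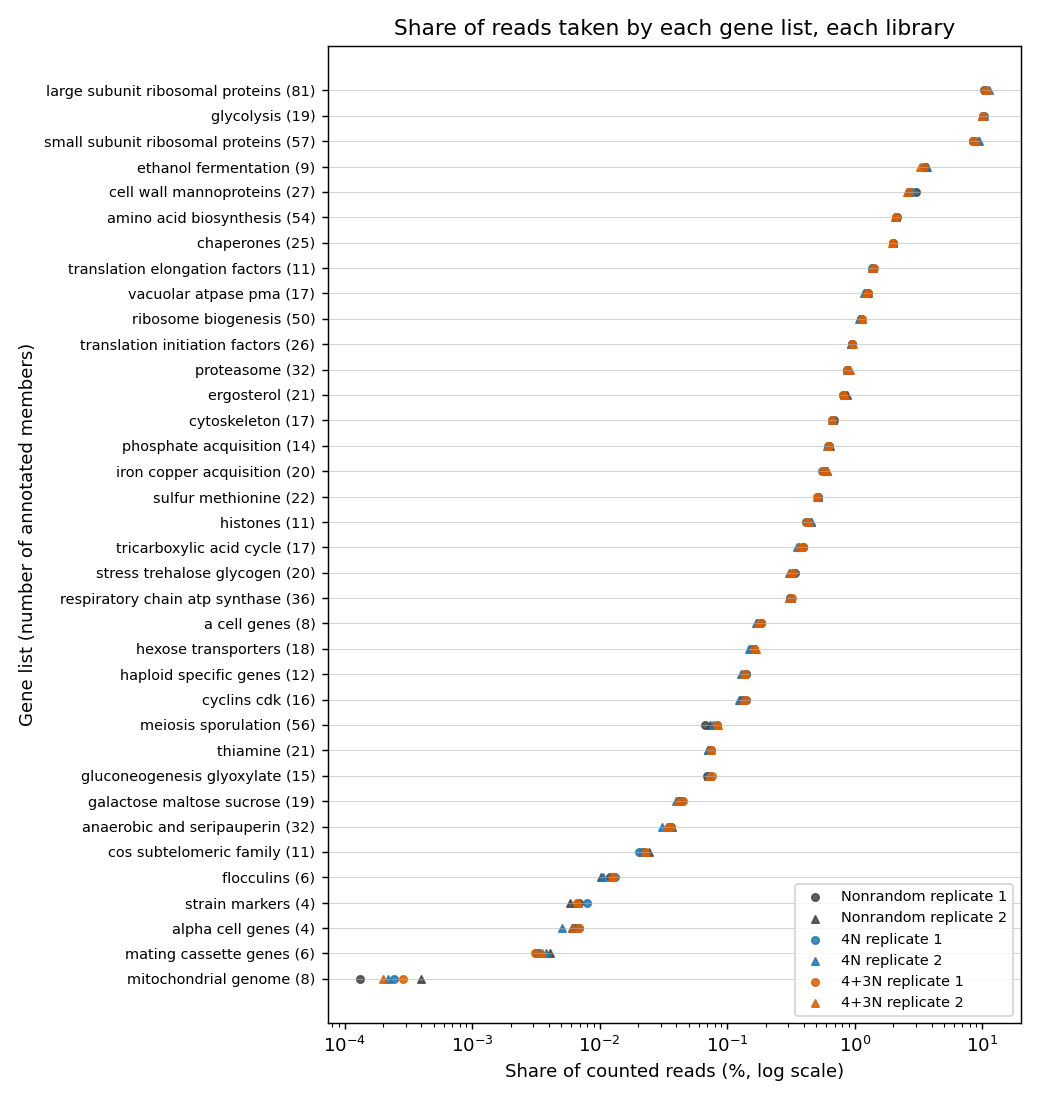
Share of counted reads (x axis, percent, log scale) taken by each gene list (y axis, with its number of annotated members), one point per library, coloured by preparation with circles for replicate 1 and triangles for replicate 2. Points of a list lie close together for the large lists, such as glycolysis at 9.93% to 10.4%, and lists with no reads in 1 or more libraries are not drawn.

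All 8 genes of the a-cell list were expressed, and 3 of the 4 alpha-cell genes also had at least 10 reads in each library. The a-cell genes STE2, the alpha-factor receptor (583 ± 20.5 TPM), STE6, the a-factor exporter (91.2 ± 9.81 TPM), BAR1, the protease that degrades alpha-factor (176 ± 14.2 TPM), MFA1 (476 ± 70.6 TPM) and MFA2 (759 ± 99.9 TPM), which encode a-factor, AGA2, an agglutinin subunit (146 ± 35.6 TPM), and ASG7 (29.5 ± 4.27 TPM) had at least 10 reads in each library. So did AXL1, an a-factor protease (33.3 ± 1.69 TPM), which the list holds although it was not set as an a-cell marker. Of the alpha-cell genes, MF(ALPHA)1, the main alpha-factor gene, had 1, 0, 1, 0, 0 and 1 reads, and STE3, the a-factor receptor, 13, 22, 19, 14, 11 and 15 reads (4.22 ± 0.51 TPM). MF(ALPHA)2, the minor alpha-factor gene, stood at 24.4 ± 7.03 TPM and SAG1, alpha-agglutinin, at 23.6 ± 3.62 TPM, with overlapping ranges. MF(ALPHA)2, SAG1 and STE3 were below STE2 and BAR1 in every library. This does not extend to all a-cell genes, as ASG7, the lowest of those named, had a mean close to those of MF(ALPHA)2 and SAG1. The reference genome is of mating type alpha, so MATALPHA1 and MATALPHA2, with HMLALPHA1, HMLALPHA2 and HMRA2, are annotated in it, and these 5 were listed in none of the 6 tables. HMRA1, whose sequence the MATa locus shares, stood at 70.5 ± 7.01 TPM. LEU2, MET17 and URA3 were listed in none of the 6 tables, and HIS3 had 159, 204, 262, 125, 137 and 169 reads in Nonrandom replicates 1 and 2, 4N replicates 1 and 2 and 4+3N replicates 1 and 2, the order used for all read counts here. Haploid-specific genes were all 12 expressed, among them GPA1 (132 ± 4.28 TPM) and STE4 (140.0 ± 6.68 TPM), subunits of the pheromone-coupled G protein. In bulk RNA, fewer cells that express a gene and less RNA per cell cannot be told apart.

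Genes of meiosis and spore formation were low but seldom unread. Of 56 such genes 31 were expressed, 22 lay between the expressed and silent classes, 2 were silent and 1 was unlisted, and together they took 0.0666% to 0.0841% of reads. The list holds CLB1 (68.7 ± 2.41 TPM) and CLB5 (39.7 ± 6.6 TPM), cyclins that mitotic cells also use. IME1 (15.1 ± 2.47 TPM), the master inducer, IME2 (8.73 ± 1.13 TPM), its kinase target, and NDT80 (13.2 ± 2.38 TPM), the mid-meiotic activator, each had at least 10 reads in every library. Others were lower, with SPO11, which makes meiotic double-strand breaks, at 4.36 ± 0.969 TPM, SPS4 at 4.29 ± 1.59 TPM, HOP2 at 1.31 ± 0.466 TPM, MAM1 at 0.621 ± 0.552 TPM and CDA2, a chitin deacetylase of the spore wall, at 0.0768 ± 0.188 TPM. SAE3, a DMC1 partner, was listed in none of the 6 tables. Over all annotated genes, 883 of 6021 had a mean under 10 CPM.

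Genes were placed in 4 classes. Expressed genes had at least 10 reads in each of the 6 libraries (5268 genes, 87.5% of those annotated), silent genes had reads but fewer than 3 in every library (102), unlisted genes appeared in none of the 6 tables (291), and 360 genes lay between. Both limits cut through a continuum. The lowest count was 8 or 9 for 47 genes just below the first limit and 10 or 11 for 47 just above it, and the highest count was 2 for 38 silent genes and 3 for 45 genes outside that class. Silent genes had a median length of 363 bp and expressed genes of 1284 bp, and 39.2% of silent against 2.41% of expressed genes were under 300 bp. The limits are in reads and not per length, so a short gene needs a higher TPM to reach them. A standard name was carried by 93.9% of expressed, 38.2% of silent and 28.5% of unlisted genes. The silent genes with names included spore and meiosis genes (OSW1, CDA2, SPO19 and GMC2), sugar and polyol genes (MPH2, MPH3, SOR1, SOR2 and HXT15), thiamine synthesis genes (THI5, THI11 and THI12) and seripauperins (PAU4, PAU11, PAU12 and PAU15). Of these HXT15 and the THI and PAU genes are marked as near-identical copies, and their counts are uncertain. They also included genes known from stationary phase or water stress, with SPG4 at 0, 0, 0, 0, 1 and 1 reads and SIP18 at 0, 2, 0, 2, 0 and 1 reads.

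Silent and unlisted genes lay near the chromosome ends more often than other genes, given here as a description. Distance was measured to the outermost annotated gene of each nuclear chromosome, since chromosome lengths were not at hand. Of 134 genes within 10 kb, 75 were silent or unlisted (56%), and their median level was 0.362 TPM. The share was 22% of 123 genes from 10 to 20 kb, 7.48% of 147 genes from 20 to 30 kb, and 2.08% of 144 genes from 30 to 40 kb. Beyond 100 kb it was 4.99% of 4491 genes, with a median of 43.9 TPM. From 30 to 50 kb the bin medians were near that of the interior, at 37.2 and 47.6 TPM. Even so 28 of the 134 outermost genes were expressed. Levels also differed within gene lists that hold genes of the ends, although HEM13, TIR1 and FLO8 in these lists do not lie near the ends. In the COS family, COS6 (59.9 ± 5.63 TPM), COS9 (48.2 ± 4.22 TPM) and COS8 (40.6 ± 3.39 TPM) were expressed, COS4 had 1, 0, 1, 0, 0 and 0 reads, and COS2 and COS3 were unlisted. Of the 32 hypoxic and seripauperin genes 8 were expressed, led by HEM13, coproporphyrinogen oxidase (112 ± 6.4 TPM), and the mannoprotein TIR1 (97.5 ± 7.06 TPM), while 13 PAU genes were unlisted. All 6 genes of the flocculin list were expressed at low levels. They ran from FLO8 (25.1 ± 2.65 TPM), which encodes an activator of the family and not a flocculin, to FLO11 (1.86 ± 0.381 TPM) and FLO1 (1.73 ± 0.318 TPM). Marked by name as near-identical copies are all 11 COS genes, 24 of the 32 hypoxic and seripauperin genes and 3 of the 6 in the flocculin list. Levels of the marked genes are therefore uncertain. Near-identical copies were marked by name for 15.1% of unlisted, 11.8% of silent and 3.3% of expressed genes. The part of such copies in the gradient was not tested.

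**Figure D4:**
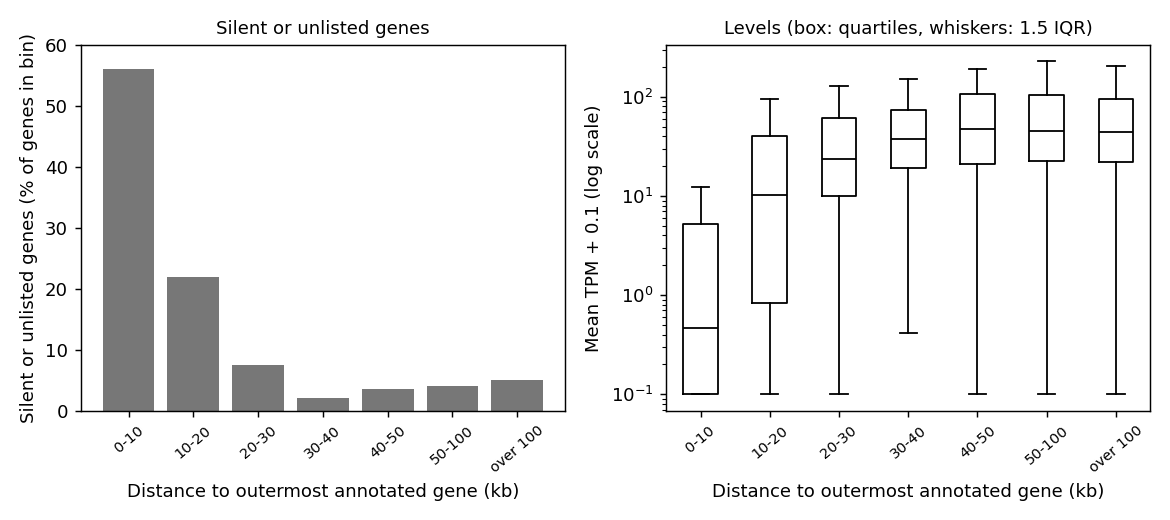
Nuclear genes binned by distance to the outermost annotated gene of their chromosome (x axes, kb). The left panel gives the silent or unlisted share of each bin (percent), and the right panel the mean TPM per gene plus 0.1 on a log axis (line, median; box, quartiles; whiskers, 1.5 times the interquartile range). The share fell from 56% within 10 kb to 2.08% at 30 to 40 kb.

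Part of the 291 unlisted genes can be sorted by kind. Deleted markers (LEU2, MET17 and URA3) and alpha mating type genes have been named. In all, 87 shared at least 50% of their length with another annotated gene (29.9%, against 1.99% of all annotated genes). Among them were 9 reading frames wholly within the annotated spans of COX1 and COB of the mitochondrial genome. Others were such pairs as BUD25 with HEM14, NAG1 with IMO32, VAM10 with VPS5 and SLM6 with REI1. Reads of such pairs may have been assigned to the partner, which was not tested. In some pairs both genes were unlisted, such as YML045W-A (1323 bp), wholly within YML045W (5269 bp), and YMR051C within YMR050C, of the same spans. Unnamed frames of 1323 bp that lie wholly within a longer unnamed frame recur among the 87. COX1 and COB, the partners of the 9 frames, had few reads, as given below. Marked as near-identical copies were 44 genes, 2 of which are also among the 87, and among them were 6 of the YRF1 helicase genes of the telomeres, 4 ASP3 asparaginase genes, ERR1, ERR2 and ERR3, HSP32 and HSP33, ENA2, a sodium pump, and the metallothionein genes CUP1-1 and CUP1-2. The 4 ASP3 genes lie in tandem on chromosome XII, from 469317 to 487289 (R64, the assembly called sacCer3 in the submitters' processing notes). Outside the overlapping, copied and deleted genes 159 remained, 144 of them with no standard name, with a median length of 345 bp. Of the unlisted genes 33 were at least 3000 bp long, 20 of them with no standard name. A span of exactly 5269 bp was shared by 12, YML045W and YMR050C among them. Copies were marked by name, so unnamed genes with copies are not in the count of 44. With the counting of shared reads not stated, a count of 0 for a gene with copies is no measure of its transcription.

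Read counts for genes of the mitochondrial genome were close to 0. Of its 8 major protein genes, COX2, ATP6 and ATP8 were unlisted, COB had 0, 1, 0, 0, 1 and 0 reads, COX3 0, 0, 0, 0, 1 and 0, COX1 1, 7, 2, 2, 2 and 3, OLI1 1, 5, 2, 0, 2 and 1 and VAR1 1, 1, 4, 2, 0 and 1. The nuclear partners of these subunits were expressed, with COX4 at 93 ± 9.12 TPM and ATP1 at 171 ± 17.9 TPM. How mRNA was selected is not given, so whether mitochondrial and nuclear mRNA entered the libraries alike is unknown. The low mitochondrial counts are thus no measure of transcription. Open reading frames at the ribosomal DNA were also close to 0. TAR1, on chromosome XII from 454696 to 455070 within the ribosomal RNA transcript gene RDN37-1, and YLR154C-G were unlisted, YLR162W had 0, 0, 0, 0, 1 and 1 reads and RRT15 0, 0, 2, 0, 3 and 0.

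The comparison of preparations asks whether random bases in the oligonucleotides change the reading of the transcriptome. Few genes passed the test, and most of these were marked as near-identical copies. By edgeR's quasi-likelihood test with Benjamini-Hochberg adjustment, 10 of 5415 genes tested rose in 4N against Nonrandom (0.185%) and 12 rose in 4+3N (0.222%), and in both comparisons 0 fell. Both use the same Nonrandom libraries, so their calls are not independent. In either direction, 201 and 197 genes had an unadjusted p under 0.05, and DESeq2 called 8 and 12. In 4+3N against 4N 0 passed by edgeR, with 132 at an unadjusted p under 0.05 and 0 by DESeq2. Of the 10 genes 7, and of the 12 genes 10, were marked by name as near-identical copies, as were 188 of the 5415 tested. With replicate number as a block, 16 genes rose in 4N (0.295%), 13 in 4+3N (0.24%), and in 4+3N against 4N 3 rose (0.0554%), namely TEF2, TEF1 and RPL1A.

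RPL41A and RPL41B, which encode a very small protein of the large subunit, moved most. RPL41A had 7, 19, 130, 68, 50 and 141 reads and RPL41B had 5, 3, 74, 41, 45 and 73. Both Nonrandom libraries were thus below all 4 others for each gene. RPL41B rose by 3.96 (SE 0.38, adjusted p = 8.99e-05) in 4N and by 4.13 (SE 0.37, adjusted p = 2.04e-05) in 4+3N, and RPL41A by 3.08 (SE 0.39, adjusted p = 0.00129) in 4N and by 3.15 (SE 0.39, adjusted p = 0.000362) in 4+3N (log2 fold changes, edgeR). TEF2 stood at 155 and 121 (Nonrandom), 251 and 232 (the 4N libraries) and 343 and 366 (the 4+3N libraries) CPM. The 3 groups did not overlap, and the order was Nonrandom, 4N, 4+3N. TEF2 rose by 0.83 (SE 0.11, adjusted p = 0.00159) in 4N and by 1.34 (SE 0.11, adjusted p = 7.73e-06) in 4+3N by edgeR. The elongation factor 2 gene EFT2 rose in 4N by 0.78 (SE 0.14, adjusted p = 0.037) and in 4+3N by 1.23 (SE 0.14, adjusted p = 0.000116), both by edgeR. RPL35A, of the large subunit, rose in 4N by 0.90 (SE 0.16, adjusted p = 0.037) and in 4+3N by 1.22 (SE 0.16, adjusted p = 0.000476), again by edgeR. In 4+3N, EFT1 rose by 1.40, RPL35B and RPL1A each by 1.18, TEF1 by 1.15 and RPL1B by 1.05. In 4N, TEF1 rose by 0.65 and RPL1B by 0.62. Genes outside the marked copies were YDR524W-C, which rose in 4N by 0.89 (SE 0.11, adjusted p = 0.00129) and in 4+3N by 1.00 (SE 0.11, adjusted p = 0.000116), CSS1, which rose in 4N by 0.69 (SE 0.13, adjusted p = 0.037) and in 4+3N by 0.72 (SE 0.13, adjusted p = 0.0187), and IRC15, which rose in 4N by 0.73 (SE 0.14, adjusted p = 0.0399). The call of CSS1 in 4+3N was lost without any 1 of the 4 libraries compared, and 9 of the 10 calls in 4N, all but that of RPL41B, were lost without 4N replicate 1. By DESeq2 the 4N calls of EFT2, CSS1 and IRC15 did not pass (adjusted p of 0.0917, 0.105 and 0.139).

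By list, 4 of 81 large-subunit genes rose in 4N and 6 in 4+3N. Of 11 elongation factor genes, 3 rose in 4N and 4 in 4+3N. Over all genes tested the share that rose was 0.185% in 4N and 0.222% in 4+3N. Every member of these lists that rose is marked as a near-identical copy, as are 70 of the 81 and 4 of the 11. In both comparisons 0 members of either list fell. The median log2 fold change in 4N and 4+3N was 0.05 and -0.04 over the large-subunit list and 0.08 and -0.03 over elongation factors, against 0.001 and -0.004 over all genes tested. Larger medians stood in lists without a called member, at 0.25 and 0.23 over 42 meiosis and spore genes and 0.27 and 0.26 over the 6 genes of the flocculin list. The meiosis list's share of reads was 0.0666% and 0.0735% in Nonrandom and 0.0773% to 0.0841% in the 4 other libraries, without overlap. Such a split was not particular to this list. The gluconeogenesis list stood at 0.0696% and 0.0701% in Nonrandom against 0.0715% to 0.0754%. In the other direction, the cytoskeleton list stood at 0.684% and 0.672% in Nonrandom against 0.658% to 0.671%. These splits were not tested. No member of the other 35 lists passed without the block, and with it GAL4, activator of the galactose genes, rose in 4N by 0.84 (edgeR adjusted p = 0.0155). None of the 30 genes with most reads passed in any comparison.

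**Figure D5:**
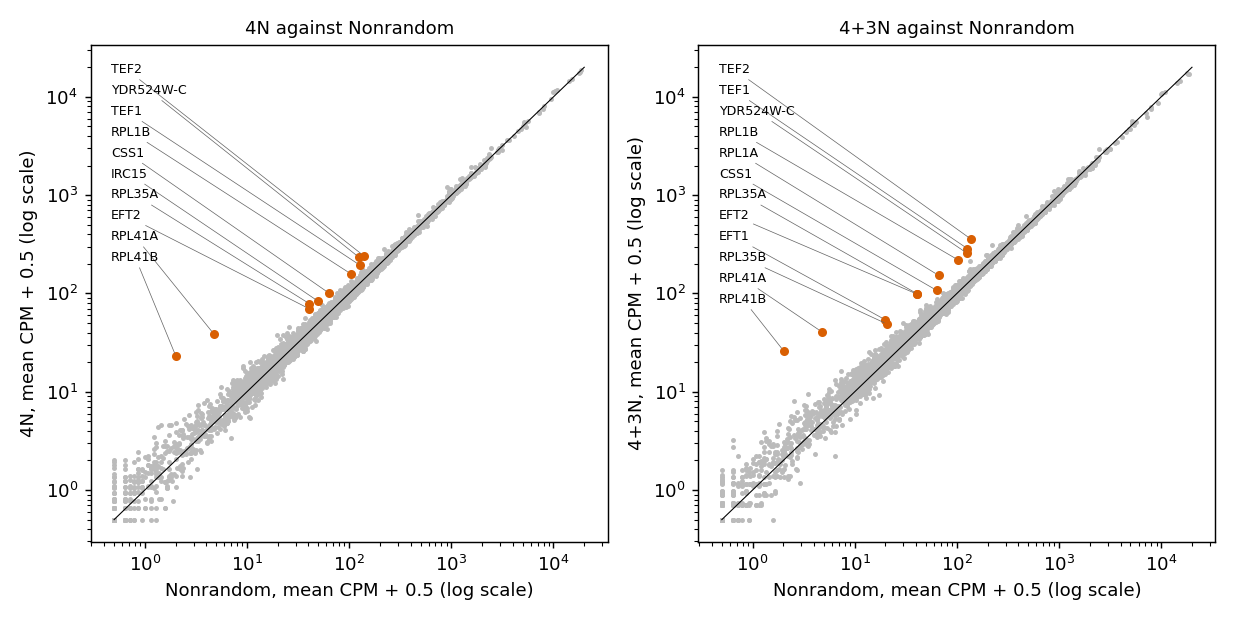
Mean CPM plus 0.5 in Nonrandom (x axes, log scale) against 4N (left) and 4+3N (right, y axes, log scale), n = 2 libraries each, one grey point per gene. The line marks equal values, and the orange points, joined to their names by thin lines, are the 10 and 12 genes that passed, all above the line, with RPL41A and RPL41B farthest from it.

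Set beside footprints, the leading genes were largely shared. Over the 5 standard ribosome profiling libraries of the same preparations that were used, 23 of the 30 leading mRNAs were among the 30 genes with most footprint reads and 76 of the 100 among the first 100. CDC19 had rank 7 by mRNA reads and 2 by footprints, PMA1 18 and 9, RPS12 20 and 45, and RPL2B 26 and 90. These ranks are given as values, and their difference was not tested. Of the 102 silent genes 60 had at least 1 read among the 12 footprint libraries used, of the 291 unlisted genes 20, and of the 5268 expressed genes 5264.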

How the data were processed

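Each deposited table gives a read count for every gene with reads (columns Target and Reads, per the file headers), unnormalized, and unlisted genes were set to 0. CASAVA 1.8, Bowtie 1.0.0 and the sacCer3 build are named, with no order, per the submitters' processing notes. Strand, the rule for assigning reads to genes and the treatment of reads with several alignments are not given in the sources used here. The 6 mRNA-seq tables held 5736 identifiers, of which 5730 matched protein-coding genes of the RefSeq table for R64 and 3 pseudogenes; 3 were not matched and have no TPM. No sequences were at hand, so near-identical copies were marked by name and none were printed. Groups came from the sample titles; the files of the 4N and 4+3N samples carry other preparation names (3N and 4N), which were not followed. The table of Nonrandom ribosome profiling replicate 1 gives each gene more than 1 count and was not used.

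CPM and TPM were computed from the deposited counts with annotated gene spans, 96.3% of which were multiples of 3. Genes were filtered with filterByExpr, scaled by TMM and tested two-sided by edgeR 4.0.16 quasi-likelihood tests (R 4.3.3) over the 6 libraries, with Benjamini-Hochberg adjustment at 0.05; each SE was obtained by dividing the size of the log2 change by the root of its F statistic. DESeq2 1.42.0 was an alternative, and the test was tried on simulated counts. Other settings were upper-quartile scaling, no filter, no near-identical copies, each library left out and other count limits.

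Same-numbered libraries deviated from their group means together (correlations of 0.251, 0.136 and 0.107 over 5415 genes for the 3 pairs of preparations), and the labels give the 3 preparations of a number the same source name, so the replicate block is given beside the main counts. The 30 genes with most reads, the 20 highest per length, up to 4 of the highest and 3 of the lowest members of each list, the largest changes per comparison and all markers were eligible for naming; others were named after their values were seen. The members and lists were chosen with earlier results of these data known.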

Additional observations from a re-analysis of the deposited data

Results flagged for a closer look

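Genes listed in none of the 6 mRNA-seq tables but read more than 3 times, the most that 0 counts allow, in some ribosome profiling library numbered 9 of 291. The highest were the open reading frames TAR1, with up to 32652 reads, and YLR154C-G, with up to 14715, both in replicate 2 of the Nonrandom low libraries, and YPR159C-A, with up to 6753, in replicate 1 of the 4+3N low libraries. TAR1 and YLR154C-G lie wholly within ribosomal RNA genes on chromosome XII. The mitochondrial genes ATP6 and COX2 had up to 12 and 10 reads. YJL136W-A had up to 21, YGL138C up to 7, and YLL006W-A and YAL037C-A up to 4 each. The assays were not matched in depth, since the footprint libraries held from 827347 to 13478485 reads.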

How the results depend on the processing

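The count of expressed genes (5268) kept within 1.5 times under the other limits and without any library (5268 to 5308), and that of unlisted genes (291) rose to between 292 and 299 with 1 library fewer. Silent genes (102) numbered 268 with a limit of 10 reads and 100 to 117 without 1 library. The share of reads in the 100 leading genes, 35.4% on the mean of libraries, was 43.6% by TPM and 33.7% without near-identical copies, and 35.1% to 35.5% without 1 library. The genes that hold 50% of reads (268) numbered 149 by TPM and 265 to 273 without 1 library. TPM moved the share of 35 of 37 lists by more than their SD, leaving out near-identical copies moved 32 of 35, and leaving out a library moved 0. Without copies the histone list went from 0.434% to 0.0276% of reads.

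Without near-identical copies, 1 gene passed in 4N and 1 in 4+3N against Nonrandom, YDR524W-C in both. With the replicate block 4N against Nonrandom gave 16, and 4+3N compared with 4N gave 3. Without 1 library, 4N against Nonrandom gave 1 to 8 genes (1 without 4N replicate 1, 4 without 4N replicate 2, 5 without Nonrandom replicate 1), 4+3N against Nonrandom 11 to 14, and the comparison of 4+3N with 4N 0; the lone library of a group is then assumed to vary like the others. The cause of these changes was not tested. Each of the 22 calls kept its direction in every setting that tested its gene. DESeq2 gave 8, 12 and 0 genes. Depth limits the low end: 5415 of 5736 listed genes had enough reads to be tested.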
